A study of Mus musculus with 14 samples.

Results

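Among the genes that differed between mouse brainstem gliomas with and without floxed Ezh2 alleles, 65 carry names of cilium, centrosome, tubulin and motor protein families. They were selected on measured values. The authors listed 3533 genes as differing between EZH2 loss-of-function (EZH2 LOF) and EZH2 wild-type (EZH2 WT) tumors, and 68 of these have symbols that start with Dnah, Dync, Ift, Cfap, Bbs, Ttc, Kif, Myo, Tuba, Tubb, Tubg, Cep or Ccdc (a digit follows Ift, Ttc, Kif, Myo and Cep). Tubb2a was left out because it is also among the 294 genes listed for the gain-of-function experiment, and Ccdc30 and Ccdc146 because their EZH2 WT means were below 10 normalized counts. By name, 6 of the 65 genes are cilium genes, 15 are motor genes, 12 are centrosome genes, 3 are tubulins and 29 have Ccdc (coiled-coil domain) or Ttc (tetratricopeptide repeat) names. Names are not roles. Kif1bp, counted here with the motors by its symbol, encodes a protein that binds kinesins and is not itself a kinesin, and several Ccdc and Ttc proteins have no known place in the cilium.

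The tumors were pontine gliomas of C57BL/6 mice in which the viral receptor Tv-a is driven by the Nestin promoter, so that RCAS viruses released by injected DF1 chicken cells infect Nestin-expressing progenitors of the newborn brainstem. The 3 EZH2 WT tumors arose in Nestin-Tv-a; p53f/f; Ezh2wt mice and the 4 EZH2 LOF tumors in Nestin-Tv-a; p53f/f; Ezh2f/f mice, and both groups received RCAS-PDGFB and RCAS-Cre, so p53 loss and PDGFB are shared by all 7 tumors. The sources used here give no ages at collection. Cre removes exons 14 to 15 of the floxed Ezh2 allele, which encode part of the catalytic SET domain. The study describes this deletion as partial by PCR and RNA-seq, and cells that were not infected keep the gene. It also reports that H3K27me3 staining was almost lost after Ezh2 deletion, in tumors made with RCAS-shp53. The groups came from different breedings, so an effect of the Ezh2 allele and one of background cannot be told apart. The targeted gene itself has no line in the table and was not analysed here. Bulk RNA was sequenced, so fewer cells of a type and less RNA per cell cannot be told apart for any gene below. Nothing in the labels says whether the tumors came from separate litters, and spreads are those between these 7 samples.

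The cilium is a microtubule-based projection that grows from a centriole. Its core, the axoneme, carries dynein arms when the cilium beats, while a primary cilium lacks these arms and serves as an antenna for signals such as Hedgehog. Proteins enter and leave by intraflagellar transport, in which IFT particles are pulled outwards by kinesin-2 and back by dynein-2, and the BBSome moves membrane proteins along with them. The same centrioles form the centrosome that organises the spindle in mitosis, so a cell in division and a cell with a cilium use one set of centriolar proteins in turn. Kinesins walk along microtubules, mostly towards their growing ends, cytoplasmic dynein walks the other way, and myosins move on actin. Gliomas can carry primary cilia, and motile cilia in the normal brain belong to ependymal cells.

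Values are normalized counts, which the authors made by scaling each library's reads per gene with its DESeq2 size factor. Differences are EZH2 LOF minus EZH2 WT on the log2(normalized count + 1) scale with their standard error, which understates the change of low genes. The relative depth of the libraries differed: 1 read was worth between 0.379 and 0.557 normalized counts in the EZH2 WT tumors, but 4.58 in EZH2 LOF 13, 2.14 in EZH2 LOF 14, 0.736 in EZH2 LOF 15 and 1.19 in EZH2 LOF 16. A value in EZH2 LOF 13 is therefore the coarsest of the 7. Every gene of the table kept its direction when EZH2 LOF 13 and 14 were left out, and 41 of the 65 genes were higher and 24 lower with or without them. The table lists only genes that the authors called on this contrast. A change of direction was therefore unlikely from the start, and its absence tests nothing.

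Of the 65 genes, 41 (63.1%) had a higher mean in EZH2 LOF and 24 (36.9%) a lower one, against 1727 (48.9%) and 1806 (51.1%) of all listed genes. The median difference was 0.65 over the 65 genes and -0.33 over all listed genes. The groups did not overlap for 36 higher and 21 lower genes. In the whole table this held for 41.9% of genes in the higher and 44.6% in the lower direction. With limma and Benjamini-Hochberg adjustment, 31 of the 65 genes passed an adjusted p of 0.05 as higher and 12 as lower, while 31.2% and 29.7% of all listed genes passed in these directions. The table, and with it these genes, was chosen by the same contrast, so these counts describe size against spread and test nothing. They depended on single libraries. The higher count was 19 without EZH2 WT 1, 11 without EZH2 WT 2, 16 without EZH2 LOF 13, 14 without EZH2 LOF 15 and 11 without EZH2 LOF 16, and the lower count was 6 without EZH2 WT 2, 7 without EZH2 LOF 15 and 7 without EZH2 LOF 16. Without EZH2 LOF 13 and 14 together, 3 genes passed as higher and 1 as lower. The whole table lost calls too. With the full set 47.7% of the 65 genes passed as higher and 18.5% as lower, beside the 31.2% and 29.7% above. Without EZH2 LOF 13 and 14 these shares were 4.62% and 1.54% of the 65 genes and 5.15% and 2.52% of all listed genes. Without EZH2 WT 1, 29.2% of the 65 genes and 22.2% of all listed genes passed as higher. These shares were 16.9% and 13% without EZH2 WT 2, and 24.6% and 21.5% without EZH2 LOF 13. They were 21.5% and 18.1% without EZH2 LOF 15, and 16.9% and 15.3% without EZH2 LOF 16. Passing as lower were 9.23% of the 65 genes and 10.1% of all listed genes without EZH2 WT 2. The lower shares were 10.8% and 16.5% without EZH2 LOF 15, and 10.8% and 11.8% without EZH2 LOF 16.

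**Figure D1:**
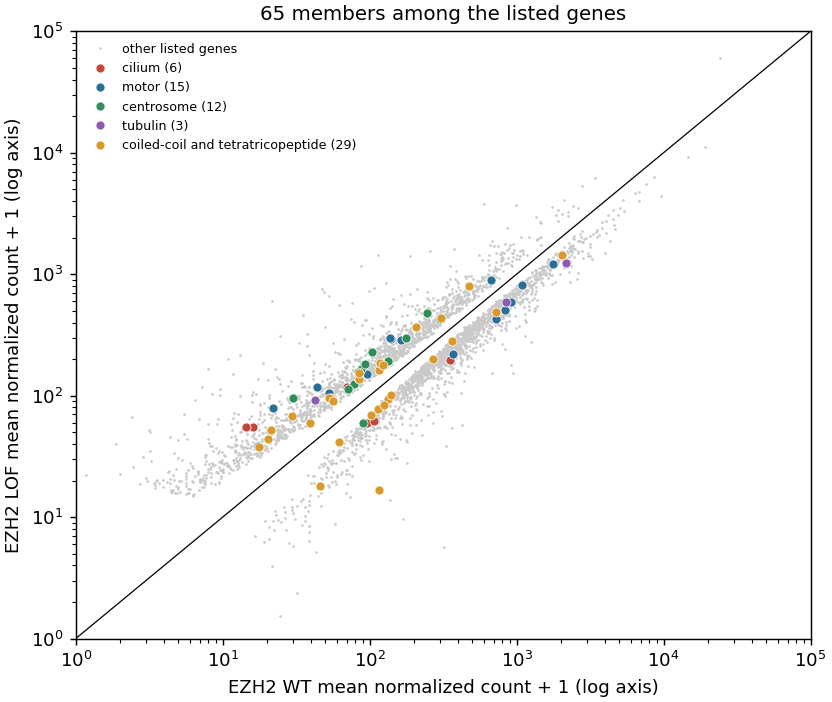
Mean normalized count + 1 in 4 EZH2 LOF tumors (y axis, log scale) against that in 3 EZH2 WT tumors (x axis, log scale), 1 point a gene. Grey points are the other listed genes, coloured points the 65 genes by name group, and the line marks equal means. The empty band along the line reflects that only genes called by the authors are listed. 41 coloured points lie above it and 24 below it.

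The direction went with the level and the sequence composition of the genes, within the 65 as in the whole table. The 41 higher genes had a median EZH2 WT mean of 82.6 normalized counts, a median summed exon length of 6685 bp and a median GC content of 53.4%. The 24 lower genes had medians of 311 normalized counts, 3780 bp and 46.8%. Over all listed genes the same medians were 94.8 normalized counts, 5902 bp and 52.5% for higher genes, and 374 normalized counts, 4424 bp and 46.6% for lower genes. The part of length or GC content in the differences was not tested. Of the 65 genes, 14 lie on chromosome 11, which holds 251 of the listed genes.

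Sequence upstream of the genes was compared for sets that moved together, using RefSeq promoter windows of mm10 from 250 bases before to 50 after the annotated start. A window was found for 55 of the 65 genes, with 68 windows in all. The words searched on both strands were CCAAT and TTTGAA, which recur in promoters of cell cycle genes, GTTGCC, a stretch of the X-box bound by RFX factors of cilium genes, and GTAAACA, a forkhead word. Kif14, Kif18b and Kif23, the mitotic kinesins of the set, each hold CCAAT and TTTGAA, and their stretches are shown for this. The pair is not particular to them. Cep89, Cep164, Cep295 and the lower gene Ttc1 also hold both words, and TTTGAA was found in 5 of 12 centrosome genes. Capitals mark the words on either strand (ATTGG is CCAAT read on the opposite strand), sequences run from 5′ to 3′ along the gene, and positions count from +1 at the annotated start.
Kif14, -240 to -81 (chr1:136467608-136467767, plus strand): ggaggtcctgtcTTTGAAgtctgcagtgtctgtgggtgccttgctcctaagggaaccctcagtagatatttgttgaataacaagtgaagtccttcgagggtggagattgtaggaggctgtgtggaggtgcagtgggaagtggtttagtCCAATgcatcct
Kif18b, -70 to 12 (chr11:102925113-102925194, minus strand): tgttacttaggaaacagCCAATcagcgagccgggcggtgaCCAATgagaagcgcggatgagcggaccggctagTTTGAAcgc
Kif23, -60 to 12 (chr9:61946788-61946859, minus strand): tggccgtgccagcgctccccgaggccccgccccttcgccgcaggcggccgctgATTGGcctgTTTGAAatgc
In Kif18b, CCAAT begins at -53 and -30 and TTTGAA at 4. In Kif23, ATTGG begins at -7 and TTTGAA at 3. In Kif14 the words lie further upstream, at -92 and -228. The bases at 11 to 50 were looked up in the GENCODE transcripts of each gene. They were found in 0 of 12 transcripts of Kif23, 1 of 8 of Kif14 and 1 of 2 of Kif18b. The annotated start of Kif23, chr9:61946799, is also where its gene span begins on the minus strand. The lookup needs these bases unbroken by an exon junction, so it does not settle where transcription starts.

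The forkhead word was found in 2 of the 55 genes, and both encode axoneme proteins, Dnah17 and Cfap43. In Dnah17 it stands on the opposite strand as TGTTTAC, and in Cfap43 it is preceded by CCAAT.
Dnah17, -230 to -170 (chr11:118129389-118129449, minus strand): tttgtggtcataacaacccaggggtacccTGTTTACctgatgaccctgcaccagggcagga
Cfap43, -110 to -41 (chr19:47837402-47837471, minus strand): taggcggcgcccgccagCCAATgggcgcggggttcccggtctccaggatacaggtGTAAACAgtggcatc
Over the promoters of 27025 mouse genes, 41.1% hold CCAAT, 20.2% TTTGAA, 14.1% GTTGCC and 4.05% GTAAACA in such a window. Of the 55 genes, 24 (43.6%) hold CCAAT, 10 (18.2%) TTTGAA, 17 (30.9%) GTTGCC and 2 (3.64%) GTAAACA. The RFX word was found in 11 of 36 higher and 6 of 19 lower genes, while TTTGAA was found in 9 of 36 higher genes and in 1 of 19 lower genes. No test was made of these shares, and a match is a description of the letters and not a bound site.

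Of the 6 cilium genes, Dnah17, Cfap100 and Cfap43, grouped here as axoneme genes, were higher in EZH2 LOF. Ift74, Bbs4 and Cfap36 were lower. This grouping by role was made after the values had been seen. The groups did not overlap for any of the 6. Over all listed genes this held for 41.9% in the higher and 44.6% in the lower direction. With limma 3 passed as higher and 1, Cfap36, as lower, beside 31.2% and 29.7% of all listed genes. Dnah17 (ENSMUSG00000033987, chr11:118021722-118129219) encodes a heavy chain of the outer dynein arm, known in humans from the sperm tail. Its normalized counts were 17.3, 9.48 and 13.5 in EZH2 WT 1, 2 and 3 and 68.7, 44.97, 52.2 and 48.9 in EZH2 LOF 13, 14, 15 and 16. Every EZH2 LOF tumor was above every EZH2 WT tumor, and the means of 13.4 ± 3.89 (SD, n = 3) and 53.7 ± 10.5 (SD, n = 4) differed 4.01-fold, a log2 difference of 1.94 ± 0.29. These values rest on 15, 21, 71 and 41 reads in EZH2 LOF 13 to 16.

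Cfap100 (ENSMUSG00000048794, chr6:90403735-90428480), whose counterpart in the alga Chlamydomonas regulates inner dynein arms, had 16.7, 13.3 and 15.01 normalized counts in EZH2 WT 1 to 3 and 82.5, 23.6, 40.5 and 69.2 in EZH2 LOF 13 to 16. EZH2 LOF 14 was the lowest of its group and still above all EZH2 WT tumors. The means of 14.99 ± 1.71 and 53.9 ± 26.8 differed 3.60-fold (log2 1.63 ± 0.41). Cfap43 (ENSMUSG00000044948, chr19:47736856-47837361), which is needed for the axoneme of sperm and ependymal cells in mice, had 63.5, 56.5 and 86.4 in EZH2 WT and a narrow 124, 118, 107 and 118 in EZH2 LOF, a 1.69-fold difference of means (log2 0.77 ± 0.19). Per kilobase of exon the level of all 3 genes stayed low, at 0.831 normalized counts in EZH2 WT and 3.33 in EZH2 LOF for Dnah17, 3.64 and 13.1 for Cfap100 and 9.75 and 16.5 for Cfap43. Dnah17 and Cfap100 are also the genes just inside the level of 10 that the choice required. Just outside it, Ccdc30 averaged 9.73 in EZH2 WT and 25.3 in EZH2 LOF, and Ccdc146 averaged 8.51 and 18.3.

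Ift74 (ENSMUSG00000028576, chr4:94614490-94693233) encodes a subunit of the IFT-B particle that carries tubulin with its partner IFT81. It had 125, 112 and 82.3 normalized counts in EZH2 WT 1 to 3 and 64.2, 38.5, 59.6 and 81.1 in EZH2 LOF 13 to 16. The lowest EZH2 WT tumor and the highest EZH2 LOF tumor nearly met, and the mean was 1.74-fold lower in EZH2 LOF (log2 -0.82 ± 0.27). Bbs4 (ENSMUSG00000025235, chr9:59321965-59353508), a subunit of the BBSome that also sits at the granules around the centriole, was close to overlap as well, with 114, 104 and 66.8 in EZH2 WT and 64.2, 47.1, 66.2 and 58.4 in EZH2 LOF (log2 -0.65 ± 0.24). Cfap36 (ENSMUSG00000020462, chr11:29221535-29247272), whose human protein binds the ciliary GTPase ARL3, showed the widest gap of the lower cilium genes. Its 386, 362 and 305 normalized counts in EZH2 WT stood against 183, 216, 175 and 202 in EZH2 LOF, a 1.81-fold lower mean (log2 -0.85 ± 0.14).

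Ttc30b (ENSMUSG00000075273, chr2:75935849-75938462), which belongs to the same IFT-B particle as Ift74 despite its name, had the largest difference of all 65 genes. It had 155, 101 and 90.04 normalized counts in EZH2 WT 1 to 3 and 9.17, 10.7, 16.9 and 26.2 in EZH2 LOF 13 to 16. All EZH2 LOF tumors were far below all EZH2 WT tumors, and the means of 115 ± 35.1 and 15.8 ± 7.75 differed 7.32-fold (log2 -2.86 ± 0.38). The EZH2 LOF values come from 2, 5, 23 and 22 reads and the EZH2 WT values from 279, 265 and 174. Of the 50-base words in the Ttc30b transcript, 34.8% also occur in other genes, chiefly its copies Ttc30a1 and Ttc30a2, so reads may have been split or set aside, and neither copy is listed. Ccdc28b, a modifier of Bardet-Biedl syndrome in humans, was lower too, with 94.1, 131 and 114 in EZH2 WT and 91.7, 62.1, 80.2 and 73.9 in EZH2 LOF (log2 -0.55 ± 0.20).

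**Figure D2:**
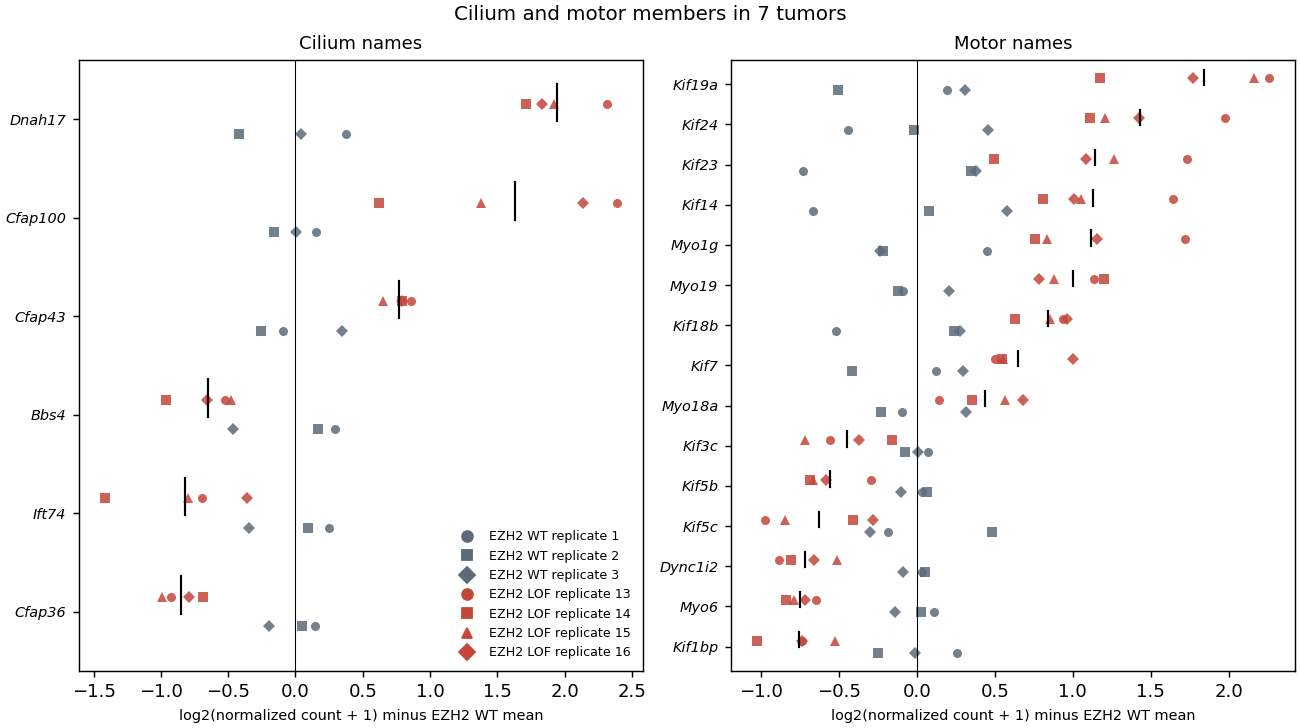
Cilium genes (left) and motor genes (right) in each tumor, as log2(normalized count + 1) minus the EZH2 WT mean (x axis). Grey symbols are the 3 EZH2 WT tumors, red symbols the 4 EZH2 LOF tumors, and black bars the EZH2 LOF mean. The 3 higher and 3 lower cilium genes stand on opposite sides of 0, and among the motors Kif19a, Kif24, Kif23 and Kif14 lie furthest right and Kif1bp, Myo6 and Dync1i2 furthest left.

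Of the 15 motor genes, 9 were higher (7 passing limma) and 6 lower (4 passing). Over all listed genes, 31.2% passed as higher and 29.7% as lower. The median difference was 0.65 for the motor genes and 0.06 for the 6 cilium genes, each beside -0.33 for all listed genes. These medians depended on where a few genes were placed. With Dnah17 counted as a motor, the cilium median was -0.65 and the motor median 0.75. With Kif7, Kif19a, Kif24, Ttc30b and Ccdc28b counted as cilium genes by role, the cilium median was 0.65 over 11 genes and the motor median -0.01 over 12 genes. A comparison of cilium with motor names as wholes therefore gave no stable order, and the finer roles are described instead. Those role sets were formed after the values had been seen.

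Kif19a (ENSMUSG00000010021, chr11:114765388-114790575), which in mice trims microtubules at the tips of motile cilia and so limits their length, had the largest difference of the motors. Its normalized counts were 23.4, 14.03 and 25.4 in EZH2 WT 1 to 3 and 101, 47.1, 94.2 and 71.6 in EZH2 LOF 13 to 16. Every EZH2 LOF tumor lay above every EZH2 WT tumor, at 3.75 times the mean (log2 1.84 ± 0.33). Kif24 (ENSMUSG00000028438, chr4:41390747-41464848) acts at the mother centriole, where it holds back cilium growth, and had 30.1, 40.6 and 56.9 in EZH2 WT and 165, 89.9, 96.4 and 112 in EZH2 LOF, 2.72-fold higher (log2 1.43 ± 0.28). Kif7 (ENSMUSG00000050382, chr7:79698097-79714186) organises the cilium tip for Hedgehog signalling. It had 102, 69.8 and 115 in EZH2 WT and 133, 137, 138 and 188 in EZH2 LOF (log2 0.65 ± 0.22) and did not pass limma. The groups did not overlap, and EZH2 LOF 16 stood apart above the other 3. Of the Kif7 exon bases, 20.3% are overlapped by genes on the opposite strand, chiefly Ticrr, and no source used here states whether the counting took account of strand.

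The 3 mitotic kinesins were higher in all EZH2 LOF tumors. Kif14 (ENSMUSG00000041498, chr1:136467847-136530819) and Kif23 (ENSMUSG00000032254, chr9:61917277-61946799) act at the midbody when a cell divides, Kif23 as the motor of centralspindlin. Kif14 had 81.8, 138 and 195 normalized counts in EZH2 WT 1 to 3 and 408, 229, 271 and 262 in EZH2 LOF 13 to 16, a 2.12-fold higher mean (log2 1.13 ± 0.29). Kif23 had 77.4, 164 and 168 in EZH2 WT and 431, 182, 310.4 and 274 in EZH2 LOF, 2.19-fold higher (log2 1.15 ± 0.33). For both genes EZH2 WT 1 was the lowest and EZH2 LOF 13 the highest of the 7 tumors, and EZH2 LOF 14 came close to the upper EZH2 WT tumors. Kif18b (ENSMUSG00000051378, chr11:102905518-102925124), which shortens astral microtubules, had 109.7, 187 and 191 in EZH2 WT and 302, 244, 285 and 308 in EZH2 LOF, 1.75-fold higher (log2 0.84 ± 0.20).

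Of 11 marker genes of proliferating cells looked up here, 2 are listed, Birc5 and Plk1, and neither passed the limma threshold. They went with the mitotic kinesins. Birc5, a subunit of the chromosomal passenger complex, had 52.3, 135 and 142 in EZH2 WT and 247, 143, 207 and 179 in EZH2 LOF, and Plk1, a mitotic kinase, had 56.8, 149.8 and 173 against 247, 193, 221 and 219. EZH2 WT 1 was the lowest tumor for both. Their summed normalized count was between 109 and 315 in EZH2 WT and between 336 and 495 in EZH2 LOF. The part of the number of dividing cells in the mitotic kinesins was not tested.

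Of 5 motors of cargo transport grouped after their values were seen, Kif5b, Dync1i2 and Myo6 passed limma as lower, while Kif3c and Kif5c, with lower means, did not pass. Among all listed genes, 29.7% passed as lower. Myo19, a motor of mitochondria described further on, stands outside this set and went the other way. Kif5b (ENSMUSG00000006740, chr18:6201004-6241524), the broadly expressed heavy chain of kinesin-1, had 1817, 1853 and 1653 normalized counts in EZH2 WT 1 to 3 and 1444, 1105, 1118 and 1183 in EZH2 LOF 13 to 16, 1.46-fold lower (log2 -0.56 ± 0.13). Dync1i2 (ENSMUSG00000027012, chr2:71211945-71263302), an intermediate chain of cytoplasmic dynein, had 850.2, 864 and 779.8 against 449, 475, 583 and 526 (log2 -0.71 ± 0.12), and Myo6 (ENSMUSG00000033577, chr9:80165033-80311729), the myosin that walks towards the minus end of actin, had 774, 731 and 649 against 458, 400.4, 416 and 437 (log2 -0.74 ± 0.11). In these 3 genes the tumors of each group lay close together and the groups were well apart. Kif3c, a kinesin-2 heavy chain of neurons, had 1145, 1034 and 1097 in EZH2 WT and 742, 979, 665 and 844 in EZH2 LOF (log2 -0.45 ± 0.14), though 40.7% of its exon bases are overlapped by genes on the opposite strand. Kif5c, the kinesin-1 heavy chain most abundant in neurons, overlapped between groups with 777, 1235 and 718 against 449, 666, 492 and 729 (log2 -0.63 ± 0.22). Kif1bp, the kinesin-binding protein, was lower without overlap at 439.9, 309 and 364 against 219.98, 179.9, 255 and 221 (log2 -0.75 ± 0.17).

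Per kilobase of exon, the cargo motors were far more abundant than the ciliary kinesins. Kif5b stood at 222 normalized counts per kb in EZH2 WT, Kif3c at 148, Kif5c at 127, Dync1i2 at 100.4 and Myo6 at 59.5, against 5.14 for Kif19a, 5.31 for Kif24 and 20.9 for Kif7. The mitotic kinesins lay between most of these, with 45.5 for Kif18b, 17.3 for Kif23 and 13.3 for Kif14. In EZH2 LOF Kif18b reached 79.8, above Dync1i2 at 61.4 and Myo6 at 35.4, so it went from the lowest to the highest of these 3.

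Of the other 3 myosins, Myo19 and Myo1g passed limma as higher and Myo18a did not pass, beside 31.2% of all listed genes passing as higher. Myo19, which moves mitochondria along actin, had 48.4, 47.4 and 59.5 in EZH2 WT and 115, 119.9, 95.6 and 89.4 in EZH2 LOF, 2.03-fold higher without overlap (log2 1.001 ± 0.20). Myo1g, a membrane myosin known from blood cells, was low throughout, with 22.3, 13.7 and 13.5 against 55.00, 27.8, 29.4 and 36.97 (log2 1.12 ± 0.34), and its EZH2 LOF values rest on 12, 13, 40 and 31 reads. Of 7 marker genes of microglia and macrophages, Itgam is the one listed, and it moved the other way, from a mean of 231 to 84.9. Its groups overlapped, with EZH2 LOF 14 at 131 above EZH2 WT 2 at 124. Myo18a, a myosin of the Golgi and the cytoskeleton without motor activity of its own, overlapped between groups with 615, 559.8 and 818 against 724, 837, 969 and 1049.5 (log2 0.43 ± 0.17).

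**Figure D3:**
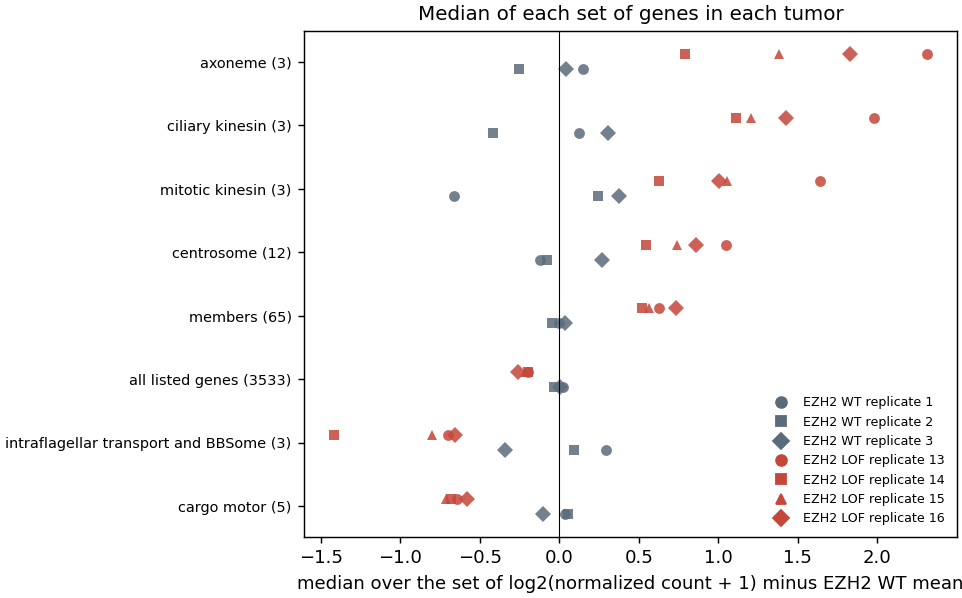
Median over each set of log2(normalized count + 1) minus the EZH2 WT mean (x axis) in the 3 EZH2 WT (grey) and 4 EZH2 LOF tumors (red), with the number of genes of each set in brackets; the 65 genes are labelled members. The axoneme, ciliary kinesin and mitotic kinesin sets are highest in EZH2 LOF 13 and lowest of the EZH2 LOF tumors in EZH2 LOF 14, while the cargo motors of the 4 tumors coincide.

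The role sets differed in how the EZH2 LOF tumors lay to each other. The median of the axoneme set was 2.31, 0.79, 1.38 and 1.83 in EZH2 LOF 13, 14, 15 and 16 relative to the EZH2 WT mean, that of the ciliary kinesins 1.98, 1.11, 1.21 and 1.43 and that of the mitotic kinesins 1.64, 0.63, 1.05 and 1.01. The cargo motors varied little, at -0.64, -0.68, -0.71 and -0.58. EZH2 LOF 13 was the highest EZH2 LOF tumor for 21 of the 41 higher genes (51.2%), and EZH2 LOF 14 the lowest for 21 (51.2%). Among all listed genes that were higher, EZH2 LOF 13 was the highest for 36.5% and EZH2 LOF 14 the lowest for 33.1%. These are also the shallowest libraries of the group, and the part of depth in this order was not tested.

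The 12 centrosome genes were higher in EZH2 LOF except Cep19, with a median difference of 0.84. For 8 higher genes and for Cep19 the groups did not overlap, against 41.9% and 44.6% of all listed genes in these directions. With limma 7 passed as higher and Cep19 as lower, against 31.2% and 29.7% of all listed genes. Cep112 (ENSMUSG00000020728, chr11:108682608-108860615), a centrosomal coiled-coil protein, showed the largest difference. It had 25.1, 26.9 and 35.2 normalized counts in EZH2 WT 1 to 3 and 101, 107, 89.7 and 82.3 in EZH2 LOF 13 to 16, a 3.27-fold higher mean (log2 1.68 ± 0.22), with a wide gap between groups.

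Of 4 proteins of the mother centriole or the base of the cilium, Cep164 and Cep128 passed limma as higher, while Cep89 and Cep162 did not pass. The share passing as higher was 31.2% among all listed genes. Cep164, which docks vesicles at the distal appendages, had 159, 142 and 224 in EZH2 WT and 357, 255, 281 and 302 in EZH2 LOF (log2 0.79 ± 0.18). Cep89, another distal appendage protein, had 47.3, 75.1 and 86.9 against 109.99, 92.1, 123 and 122 (log2 0.71 ± 0.24), and Cep128, of the subdistal appendages, had 91.9, 86.8 and 130.4 against 348, 146, 188 and 222 (log2 1.07 ± 0.28). The groups were apart in all 3, by the smallest margin in Cep89. Cep162, which links the axoneme to the transition zone, overlapped between groups with 128, 127 and 144 against 229, 141, 162 and 235 (log2 0.49 ± 0.20). Cep19 went the other way. This protein, which brings RABL2 to the centriole and so starts intraflagellar transport, had 85.7, 97.8 and 84.3 in EZH2 WT and a tight 55.00, 57.8, 60.3 and 60.8 in EZH2 LOF, 1.53-fold lower (log2 -0.60 ± 0.18), the direction of Ift74, Bbs4 and Ttc30b.

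The remaining centrosome genes serve the centriole or its surroundings. Cep63, Cep152, Cep250 and Cep131 were among those that passed, and Cep44 and Cep295 did not pass. Cep63, which pairs with Cep152 to seed new centrioles, had 75.2, 92.5 and 80.2 in EZH2 WT and 169.6, 154, 141 and 153 in EZH2 LOF (log2 0.90 ± 0.16), with no tumor of one group near the other. Cep152 itself had 62.9, 76.2 and 137 against 257, 131, 157 and 184 (log2 1.01 ± 0.30), and overlapped because EZH2 WT 3 lay above EZH2 LOF 14. Cep250, the linker that ties the centrioles together, had 246, 196 and 289 against 509, 456, 420.1 and 533 (log2 0.98 ± 0.16). Cep131, of the centriolar satellites, had 84.1, 76.2 and 97.3 against 183, 156, 128 and 193 (log2 0.93 ± 0.19), again without overlap. Cep44, of the centriole, had 74.1, 74.7 and 83.3 against 160.4, 103, 107 and 126 (log2 0.65 ± 0.20), and Cep295, which converts new centrioles into centrosomes, overlapped at 213, 321 and 363 against 545, 355, 407 and 415 (log2 0.54 ± 0.20).

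The tubulins did not move together. Tuba1a, the alpha-tubulin of young neurons, had 1829, 2578 and 2076 normalized counts in EZH2 WT and 962, 1340.4, 1376 and 1251 in EZH2 LOF (log2 -0.81 ± 0.17), and Tubb3, the beta-tubulin that marks neurons, had 767, 963 and 805 against 394, 529, 691 and 731 (log2 -0.56 ± 0.21). Tuba1c, from the same gene cluster on chromosome 15, was higher, with 34.5, 41.3 and 48.1 against 105, 66.4, 100.05 and 91.8 (log2 1.11 ± 0.23). None of the 3 overlapped between groups, beside 41.9% of all listed genes apart as higher and 44.6% as lower. Of their 50-base words, 72.9% in Tuba1a and 52.7% in Tuba1c recur in other genes, mostly each other and Tuba1b, so the split of reads between the alpha-tubulins is uncertain. Tubb3 is also 1 of 12 neuron markers looked up here. Only Thy1 is listed beside it, at a mean of 110.5 in EZH2 WT and 53.4 in EZH2 LOF. Thy1 passed limma as lower and Tubb3 did not pass. The summed level of both was between 862 and 1107 in EZH2 WT and between 431 and 798 in EZH2 LOF. Most of this sum is Tubb3 itself, so it gives no separate view of neurons. Listed genes used as markers of glia were lower as well. The study reports Olig2 staining in tumors of both groups of its RCAS-shp53 model, so Olig2 cannot be read as a marker of glia outside the tumor. Of 10 markers of mature oligodendrocytes, 4 are listed, all with a lower mean and 3 passing, beside 29.7% of all listed genes. Their summed normalized count was between 2511 and 3481 in EZH2 WT and between 1722 and 2029 in EZH2 LOF. Olig2 and Pdgfra, listed of 6 markers of oligodendrocyte precursors, summed to between 17233 and 28544 in EZH2 WT and between 11192 and 13359 in EZH2 LOF, and Olig2 passed. Slc1a3 and Slc1a2, listed of 6 astrocyte markers, summed to between 5073 and 8866 in EZH2 WT and between 3314 and 4501 in EZH2 LOF, and Slc1a3 passed. The part of neurons or glia in the lower values of Tuba1a, Tubb3, Kif5c and the other lower genes was not tested.

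**Figure D4:**
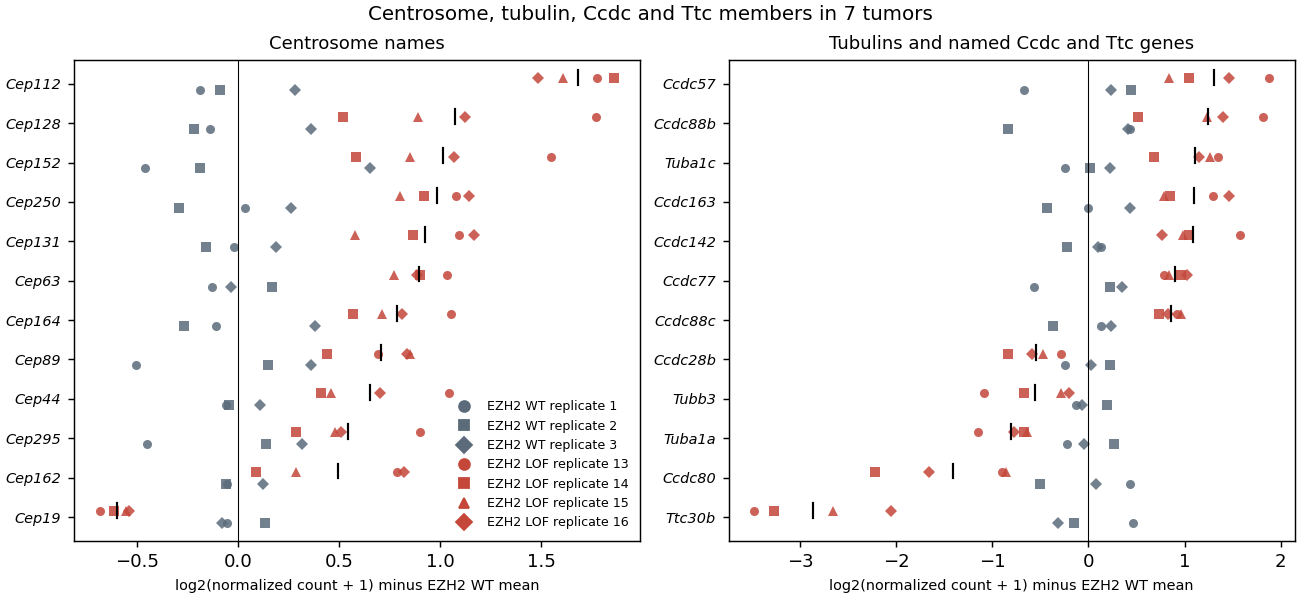
Centrosome genes (left), and tubulins with the named Ccdc and Ttc genes (right), in each tumor as log2(normalized count + 1) minus the EZH2 WT mean (x axis). Grey symbols are the 3 EZH2 WT tumors, red symbols the 4 EZH2 LOF tumors and black bars the EZH2 LOF mean. 11 of 12 centrosome genes lie right of 0 in EZH2 LOF, and Ttc30b lies furthest left, with all EZH2 LOF tumors below its EZH2 WT tumors.

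The 29 Ccdc and Ttc genes were a mixed group, 17 higher and 12 lower, with a median difference of 0.51. Differences ran from -2.86 for Ttc30b to 1.31 for Ccdc57. With limma 13 passed as higher and 5 as lower, beside 31.2% and 29.7% of all listed genes. Ccdc57, a centrosomal protein, had 11.7, 26.5 and 22.8 in EZH2 WT and 73.3, 40.7, 35.3 and 54.9 in EZH2 LOF (log2 1.31 ± 0.36). Ccdc88b had 36.2, 14.4 and 35.7 against 96.2, 38.5, 64.00 and 71.6 (log2 1.24 ± 0.39), with EZH2 LOF 14 just above the highest EZH2 WT tumor. Its paralogs split. Ccdc88c, which encodes the Wnt regulator Daple, was higher at 222, 157 and 239 against 385, 338, 397 and 360.2 (log2 0.86 ± 0.16), while Ccdc88a, which encodes the actin-binding protein girdin, was lower at 2417, 1894 and 1825 against 1429.9, 1422, 1499 and 1375 (log2 -0.50 ± 0.13). All 3 kept the groups apart.

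Ccdc80, a secreted protein of the extracellular matrix with no known place in the cilium, was the second lowest of this group after Ttc30b, with 59.02, 30.3 and 46.1 in EZH2 WT and 22.9, 8.57, 23.5 and 13.1 in EZH2 LOF (log2 -1.41 ± 0.41), from 5, 4, 32 and 11 reads in EZH2 LOF 13 to 16. Pdgfrb, the only listed gene of 6 markers of endothelial and mural cells, was lower as well, at a mean of 345 in EZH2 WT and 129 in EZH2 LOF, and its part was not tested. Ccdc77 had 33.4, 58.4 and 63.6 against 87.1, 98.5, 89.7 and 103 (log2 0.90 ± 0.25), without overlap. Ccdc142 (19.4 to 43.2 on average) and Ccdc163 (16.7 to 36.6) were higher without overlap but 65.2% and 11.8% of their 50-base words recur elsewhere. The remaining 11 higher genes (Ccdc9, Ccdc14, Ccdc18, Ccdc82, Ccdc97, Ccdc134, Ccdc157, Ttc5, Ttc7, Ttc14 and Ttc28) differed by at most 0.85, and the remaining 8 lower genes (Ccdc32, Ccdc47, Ccdc71, Ccdc127, Ccdc181, Ttc1, Ttc9 and Ttc33) by at most -0.65. Their groups overlapped in Ccdc82, Ccdc181 and Ttc9.

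Other genes of these pathways were taken from lists outside the name rule. They too are read from a table selected on this contrast. Of 91 further cilium genes 15 are listed. With limma 6 of these passed as higher and 2 as lower, beside 31.2% and 29.7% of all listed genes. Smo, the transducer of Hedgehog signals that acts in the cilium, had 66.3, 69.4 and 56.4 in EZH2 WT and 128, 152, 150.1 and 173 in EZH2 LOF. Tulp3, which carries receptors into the cilium, had 58.5, 82.7 and 134 against 234, 246, 239 and 230.2. Tekt2, a tektin of motile axonemes, was low in EZH2 WT at 4.45, 3.79 and 2.59 and had 32.1, 25.7, 9.56 and 17.9 in EZH2 LOF. Arl3, the GTPase bound by the product of Cfap36, was lower as that gene was, at a mean of 153 in EZH2 WT and 92.8 in EZH2 LOF. None of 12 ependymal marker genes, Foxj1 among them, is listed, so their levels were not analysed here.

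Of 41 further centrosome genes 11 are listed, and 5 passed as higher, beside 31.2% of all listed genes. The 3 with a lower mean (Cetn2, Haus2 and Ckap5) did not pass. Those that passed included the scaffolds Cdk5rap2 (949 ± 102 to 1497 ± 149) and Pcnt (302 ± 73.3 to 538 ± 59.2), given as mean ± SD over 3 EZH2 WT and 4 EZH2 LOF tumors. Of 45 further motor genes 19 are listed, 6 passing as higher and 7 as lower, shares close to the 31.2% and 29.7% of all listed genes. The 6 higher genes were Trak1 (535 ± 118 to 756 ± 56.05), an adaptor that joins mitochondria to kinesin, Klc3 (30.5 ± 6.00 to 62.03 ± 6.93), a kinesin light chain, Dynll2 (254 ± 21.1 to 388 ± 39.7), a dynein light chain, Hook2 (34.2 ± 4.45 to 60.8 ± 4.29), a dynein adaptor, the kinesin Kifc3 (254 ± 39.7 to 367 ± 44.2) and the myosin Myh14 (299.8 ± 54.9 to 419 ± 29.9). Genes of cargo transport thus passed in both directions. Among the lower were Kifap3, the accessory subunit of the kinesin-2 that drives intraflagellar transport, with 943, 689 and 687 in EZH2 WT and 417, 422, 430.4 and 458 in EZH2 LOF, and Dynlt3, a dynein light chain, with 558, 544 and 383 against 261, 201, 255 and 209. Both kept the groups apart. Pafah1b1, which encodes the dynein regulator LIS1, was lower at 2276 ± 47.9 against 1634 ± 149.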

How the data were processed

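RNA of flash-frozen tumors was depleted of rRNA and sequenced with a stranded kit as single-end reads of 50 bp. The study's methods and the submitters' processing notes name FastQC for quality, Trim Galore for trimming, STAR for alignment to mm10, HTSeq for counting and DESeq2 for testing, without versions. Groups come from the sample labels. Each experiment has 1 deposited table, limited to genes the authors called at an FDR under 0.05. The deposited signal values are reads per gene, scaled by the authors with DESeq2 size factors. It also holds the authors' comparison (log2 fold change, standard error, Wald score and p-values), which was not used, except that the deposited p-values, raw against adjusted, gave the number of genes tested, 13391. The gain-of-function table served only to leave out genes.

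Of 3553 lines, 3533 genes were kept, using only the first line of each repeated identifier. In all 7 libraries 100% of values were whole multiples of 1 step within 0.001 reads, and these recovered reads gave relative depth. Reads in listed genes, between 281847 and 3685186 a library, are part of a library's depth. limma (version 3.58.1, R 4.3.3) was fitted to log2(value + 1) over all listed genes with a variance trend, two-sided, with Benjamini-Hochberg adjustment over 13391 genes. On recovered reads, edgeR (version 4.0.16) called 1130 genes higher and 1125 lower, against 1102 and 1048 by limma. Both were tested on simulated data, with known fold changes but without the authors' selection of genes. Exon lengths, overlaps and shared 50-base words came from GENCODE, and promoters from RefSeq, both on mm10. Protein sequences were not used here.

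The members and lists were chosen with earlier results of these data known, and lists were written with part of the listed genes known. All cilium, motor and tubulin members were named, with the 8 largest differences without overlap among centrosome members and among Ccdc and Ttc members, members with a known role in cilia and those next to the level of 10. Others named (Cep152, Cep295 and Ccdc88a) and the role sets were chosen after their values were seen. Alternatives were other pseudocounts, a filter on low values, another scaling, edgeR, left-out libraries and other groupings.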

Additional observations from a re-analysis of the deposited data

Results flagged for a closer look

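The 4 EZH2 LOF tumors were checked for a tumor far from the others in each of the 65 genes, which chance alone flags in about 1 of 20. Kif7 in EZH2 LOF 16, at 188 normalized counts, was the 1 value found. Its gap to the next tumor was 0.916 of the group's range, past Dixon's 95% critical value for 4 samples, and the other 3 EZH2 LOF tumors lay at 133, 137 and 138.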

How the results depend on the processing

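No paired analysis was possible because the EZH2 WT replicates 1 to 3 and the EZH2 LOF replicates 13 to 16 share no number. Of the 65 genes, 31 passed limma as higher and 12 as lower. Leaving out 1 library gave between 11 and 26 higher (16.9% to 40%) and between 6 and 10 lower genes (9.23% to 15.4%). Of all listed genes, 13% to 29.7% then passed as higher and 10.1% to 24.8% as lower. Leaving out EZH2 LOF 13 and 14 together gave 3 and 1 (4.62% and 1.54%), beside 5.15% and 2.52% of all listed genes. These fits held fewer samples. Pseudocounts of 0.5 and 5, a mean of at least 20, TMM scaling of the recovered reads and edgeR were also tried. They gave between 29 and 32 higher genes (44.6% to 49.2%) and between 10 and 13 lower genes (15.4% to 20%). Of all listed genes, 28.3% to 32.9% passed as higher and 28.4% to 31.8% as lower under these settings. The median difference of the cilium genes, 0.06, was -0.65 with Dnah17 counted as a motor and 0.65 with groups by role, and that of the motor genes, 0.65, was -0.0069 by role. Leaving out 1 library moved the medians to between 0.02 and 0.11 for cilium, 0.44 and 0.80 for motor and 0.76 and 0.93 for centrosome genes. Of 780 differences of single genes under 12 alternatives, 0 changed sign and 1 moved by more than 1 SD (Ttc5, at 0.40 without EZH2 LOF 13 and 14). Because the genes were listed for differing in this contrast, a change of sign was unlikely under any alternative. EZH2 LOF 13 and 14, the shallowest libraries, limit the precision of low genes such as Ttc30b, Dnah17 and Ccdc80.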
